A study of Mus musculus with 12 samples.

Results

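Among 41457 genes counted in each library, 10 genes that moved steeply between day 2.5 and day 3.5 of Th2 and Th17 culture were followed: Slc17a6, Muc13, Ptprv, Jrk, Dlg2, Spp1, Kit, Fam183b, Asb16 and Proser2. They had been chosen by name for the size of that change, so the day course in Th2 and Th17 is described here and not tested. What the choice did not use is the Th1 cultures, the genotype and the level in each cell type. CD4+ T cells from lymph nodes and spleen of C57BL/6 mice had been activated with antibodies to CD3 and CD28 and cultured toward 3 T helper fates: Th1 with IL-12 and anti-IL-4, Th2 with IL-4 and anti-IFN-γ, and Th17 with TGFβ, IL-6, anti-IFN-γ and anti-IL-4. Cells of NFATc1/ΔS mice, in which the transcription factor NFATc1 lacks SUMOylation per the study's title, were set beside wild-type (WT) cells, and RNA was taken at day 3.5 or day 2.5. There was 1 library for each of the 12 combinations, so no group had replicates. Th17 cells were grown in IMDM with a lower dose of anti-CD3 and the other cells in RPMI, so medium, antibody dose and cell type cannot be told apart for Th17. Separate mice or cultures are not named for the libraries, so p-values measure only the spread among these libraries, which may be technical. In bulk RNA, fewer cells that express a gene and less RNA per cell cannot be told apart.

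Naive CD4+ T cells that meet antigen divide and, guided by cytokines, switch on the program of 1 helper fate while the activation response fades. NFAT factors enter the nucleus when calcineurin is active and often bind DNA beside AP-1; SUMO is a small protein that is attached to other proteins and alters their interactions. The 10 genes are not a pathway. Spp1 encodes osteopontin, a secreted phosphoprotein and cytokine that binds CD44 and integrins. Kit encodes the receptor tyrosine kinase for stem cell factor, best known in mast cells and progenitors. Ptprv encodes a receptor-type tyrosine phosphatase known from mouse osteoblasts and as a p53 target in mouse cells. Muc13 encodes a transmembrane mucin of epithelia. Slc17a6 encodes a vesicular glutamate transporter of neurons. Dlg2 encodes a scaffold protein of synapses. Jrk encodes a nuclear DNA-binding protein related to transposases. Asb16 encodes a protein with ankyrin repeats and a SOCS box, the motif by which such proteins join ubiquitin ligases. Fam183b and Proser2 are given by name only.

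The values that chose the genes are given once, as a description. Over the 4 pairs of day 3.5 and day 2.5 libraries of Th2 and Th17, 6 genes were higher at day 3.5 in every pair, with log2 fold changes of 2.34 ± 0.13 (standard error, SE, of the edgeR fit, here and below) for Slc17a6, 2.16 ± 0.30 for Muc13, 1.67 ± 0.28 for Ptprv, 1.60 ± 0.25 for Jrk, 1.498 ± 0.14 for Dlg2 and 1.49 ± 0.32 for Spp1. The other 4 were lower in every pair, with -2.02 ± 0.15 for Kit, -1.95 ± 0.13 for Fam183b, -1.83 ± 0.17 for Asb16 and -1.79 ± 0.12 for Proser2. In the same contrast 38.6% of all 13086 genes tested passed an edgeR adjusted p of 0.05 (19.9% higher, 18.7% lower). Ranked by size among genes that passed, had a mean log2 CPM of at least 1 and moved one way in all 4 pairs, the 6 stood between places 1 and 16 of 2220 rising genes, and the 4 between places 5 and 10 of 2217 falling genes. The list is therefore not the strict top of the ranking: 10 other rising genes (Akr1c18 at 2.19, Ppfia4 at 2.02) and 6 other falling ones (Hbb-bs at -3.46, Hey1 at -3.00) were larger than its smallest member. Just outside it were Il13 (1.47) and Gemin4 (1.44) among rising genes and Ppp1r3b (-1.76) and Zswim5 (-1.70) among falling ones.

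Promoters are shown for genes from both directions, to set the letters of a few known motifs beside the values that follow. The 250 bases before the annotated start are from RefSeq (build GRCm38.p6), which held 8 of the 10 genes (14 starts). Capitals mark matches, on either strand, to the NFAT core GGAAA, the AP-1 motif TGANTCA, a STAT motif (TTC and GAA separated by 3 bases) or the GATA motif AGATAA. Matches may overlap in principle; those listed below do not.
Muc13, chr16:33793787-33794036 (+ strand): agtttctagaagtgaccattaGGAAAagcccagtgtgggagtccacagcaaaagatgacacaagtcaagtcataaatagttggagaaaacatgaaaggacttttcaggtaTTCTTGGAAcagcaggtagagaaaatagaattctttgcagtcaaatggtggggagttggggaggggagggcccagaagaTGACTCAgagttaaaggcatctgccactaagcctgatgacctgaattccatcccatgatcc
Slc17a6, chr7:51621580-51621829 (+ strand): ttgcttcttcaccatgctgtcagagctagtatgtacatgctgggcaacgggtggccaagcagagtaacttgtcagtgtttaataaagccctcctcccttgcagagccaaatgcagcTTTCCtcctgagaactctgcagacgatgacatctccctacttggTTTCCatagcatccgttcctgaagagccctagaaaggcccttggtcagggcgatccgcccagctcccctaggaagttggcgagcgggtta
Spp1, chr5:104434861-104435110 (+ strand): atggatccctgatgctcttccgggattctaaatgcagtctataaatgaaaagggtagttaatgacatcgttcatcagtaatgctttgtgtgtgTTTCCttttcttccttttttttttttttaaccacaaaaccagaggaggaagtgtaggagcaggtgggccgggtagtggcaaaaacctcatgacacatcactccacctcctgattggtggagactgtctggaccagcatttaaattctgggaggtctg
Fam183b, chr11:58801961-58802210 (- strand): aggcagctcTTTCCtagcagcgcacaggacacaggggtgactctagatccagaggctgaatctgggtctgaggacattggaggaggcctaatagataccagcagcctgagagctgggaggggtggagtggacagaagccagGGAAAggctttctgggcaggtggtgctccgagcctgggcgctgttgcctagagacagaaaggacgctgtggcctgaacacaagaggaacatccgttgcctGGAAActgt
Asb16, chr11:102268501-102268750 (+ strand): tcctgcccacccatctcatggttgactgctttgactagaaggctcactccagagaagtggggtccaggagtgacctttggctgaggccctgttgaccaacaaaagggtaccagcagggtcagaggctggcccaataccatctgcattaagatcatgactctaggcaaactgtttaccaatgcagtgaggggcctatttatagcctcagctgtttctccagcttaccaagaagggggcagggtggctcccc
The Muc13 window held a GGAAA that begins 229 bases before the start, a STAT match at 140 and an AP-1 match at 61. Slc17a6 had NFAT cores at 134 and 90, Spp1 had 1 at 157, and Fam183b had 3, at 241, 109 and 9. Asb16 had no match to these letters, and neither did Kit or Proser2 (windows not shown). Counted by window, the NFAT core was present in 9 of the 14, from 5 of the 8 genes, against 55.6% of 32851 mouse promoters of this length. AP-1 letters were found in 2 of the 14 windows and STAT letters in 1 (all Muc13), against 6.75% and 7.02% of promoters, and GATA letters in 2 (Dlg2), against 9.99%. A match of letters is a description of the sequence and not a binding site.

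Reads on genes came to between 13417121 and 17774400 per library. Levels are in CPM, the reads of a gene scaled to all gene reads of its library with TMM factors. Averaged over the libraries the 10 genes lay between 2.62 and 13.3 CPM (Jrk and Slc17a6), at places 7927 to 10657 of all genes, so single values rest on 2 to 1096 reads and carry counting error (95% Poisson intervals, which cover counting error only). Both Th1 libraries of day 2.5 stood apart. Across genes, Th1 WT day 2.5 correlated at 0.954 to 0.975 with the Th17 libraries and at 0.935 to 0.937 with the other Th1 libraries, and Th1 NFATc1/ΔS day 2.5 at only 0.892 to 0.937 with the other Th1 libraries; the 2 Th1 libraries of day 3.5 correlated at 0.993. Th1 WT day 2.5 had 45.0 CPM of Tbx21, the Th1 factor, against 2.52 to 4.23 CPM in Th17, and it had no read of Il17f. The 12 T cell markers were all present. Summed Th1 genes had 564.5 to 698 CPM in Th1, against 78.8 to 141.6 CPM in Th2 and 174.4 to 278 CPM in Th17, and the Th2 and Th17 gene sets were likewise highest under their own labels. Nfatc1 itself lay between 127.9 and 270.7 CPM; counts per gene do not show SUMO sites and so check no genotype label. For the 10 genes, the Th1 tests below were rerun with Th1 pairs, blocks or libraries left out, and changed calls are given. Th1 calls of marker, partner and family genes were not rerun, so they rest on fits that include these libraries.

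**Figure D1:**
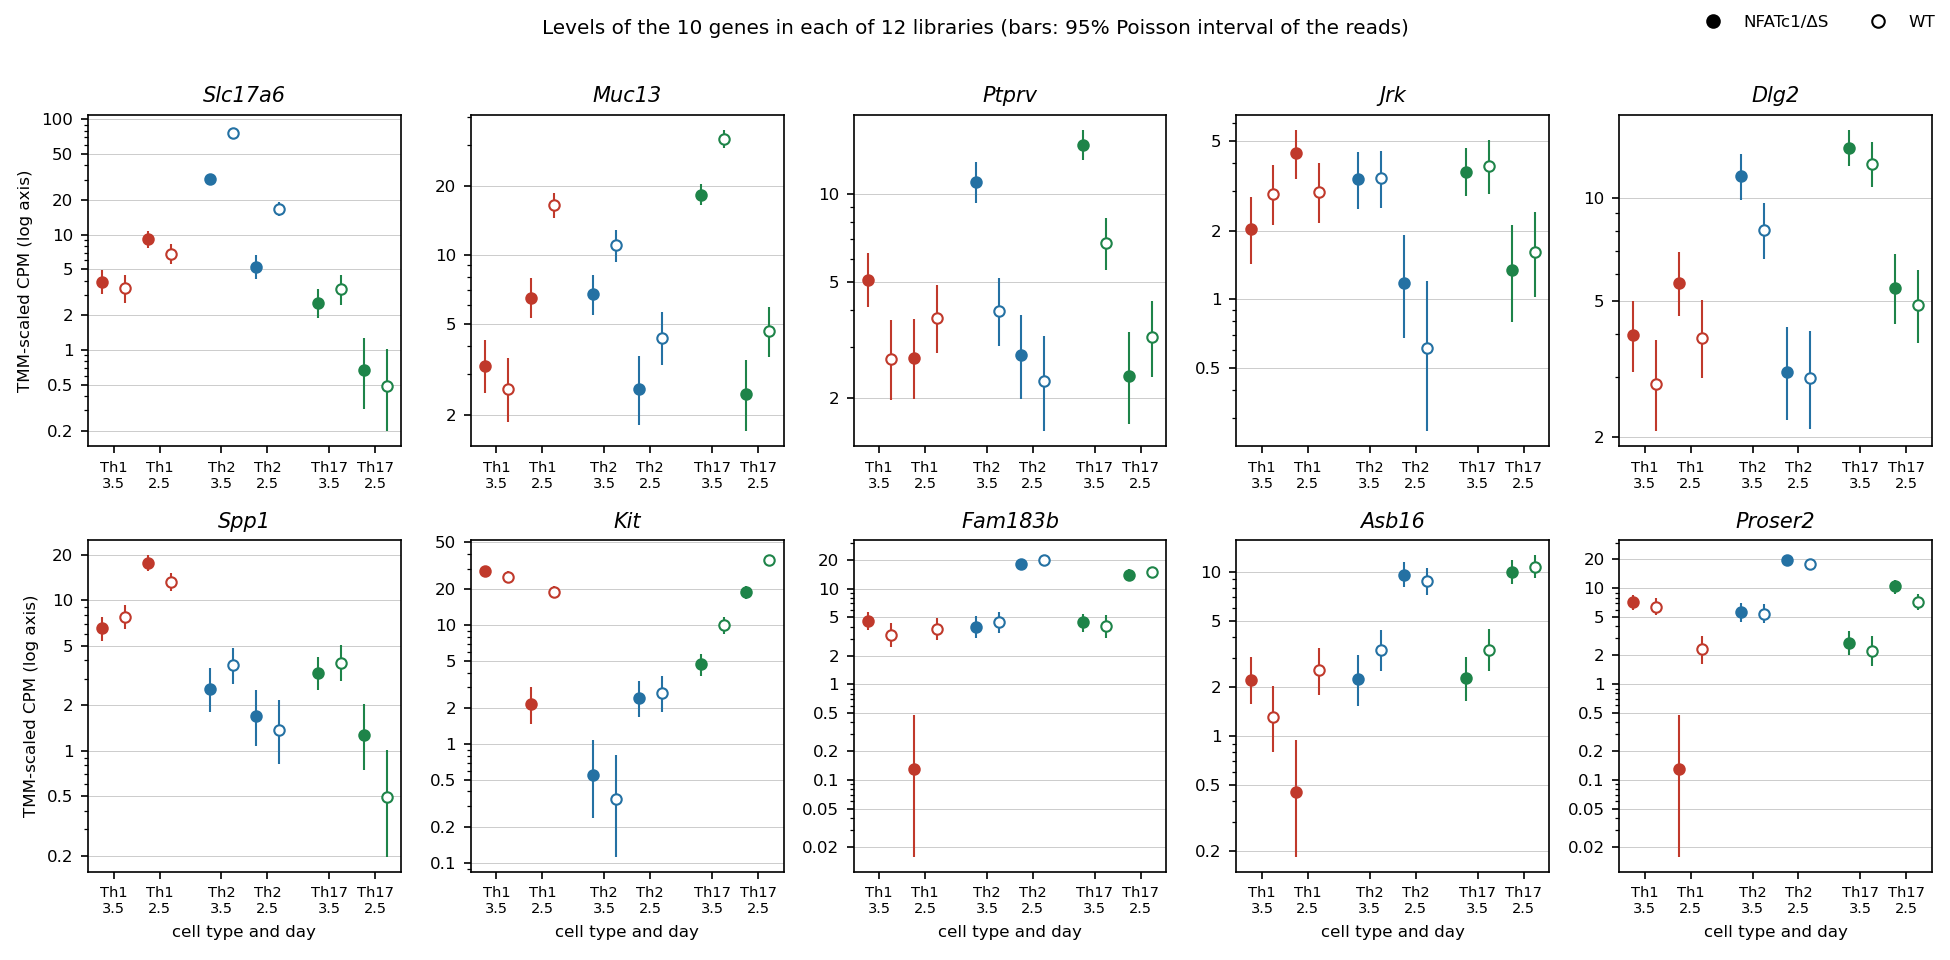
Each panel shows 1 gene. The y axis is TMM-scaled CPM on a log scale and the x axis gives cell type and day, with filled points for NFATc1/ΔS and open points for WT, 1 library each, and bars for the 95% Poisson interval of the reads. In Th2 and Th17 the first 6 genes sit higher at day 3.5 and the last 4 lower, while the Th1 points (red) go the opposite way in both pairs for 7 of the 10 genes; the filled red point at day 2.5 is lowest of all libraries for Fam183b, Asb16 and Proser2.

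Spp1, the secreted factor, was highest in Th1. In the deposited tables (GRCm38) Spp1 lies at chr5:104435118-104441050 (+ strand). In Th1 libraries Spp1 had 6.50 CPM (NFATc1/ΔS) and 7.74 CPM (WT) at day 3.5, against 17.7 CPM (NFATc1/ΔS) and 13.3 CPM (WT) at day 2.5. In Th2 libraries Spp1 had 2.56 CPM (NFATc1/ΔS) and 3.70 CPM (WT) at day 3.5, against 1.70 CPM (NFATc1/ΔS) and 1.37 CPM (WT) at day 2.5. In Th17 libraries Spp1 had 3.29 CPM (NFATc1/ΔS) and 3.85 CPM (WT) at day 3.5, against 1.27 CPM (NFATc1/ΔS, 17 reads) and 0.491 CPM (WT, 7 reads) at day 2.5. All 4 Th1 libraries were above all 8 others, and the gap was wider at day 2.5 than at day 3.5. A wider early gap is favoured by the choice of the gene, which was taken for its rise in Th2 and Th17. The order of means was Th1 (11.3 ± 5.2 CPM, SD over 4 libraries), Th2 (2.33 ± 1.04) and Th17 (2.22 ± 1.60). The means of Th2 and Th17 did not differ beyond these SDs, which mix both days. Th2 was the higher of them at day 2.5 and Th17 at day 3.5, in both genotypes.

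Kit, the receptor, ran the other way in time; Kit lies at chr5:75574916-75656722 (+ strand). In Th1 libraries Kit had 28.3 CPM (NFATc1/ΔS) and 25.7 CPM (WT) at day 3.5, against 2.16 CPM (NFATc1/ΔS) and 19.1 CPM (WT) at day 2.5. In Th2 libraries Kit had 0.552 CPM (NFATc1/ΔS, 8 reads) and 0.349 CPM (WT, 5 reads) at day 3.5, against 2.44 CPM (NFATc1/ΔS) and 2.67 CPM (WT) at day 2.5. In Th17 libraries Kit had 4.70 CPM (NFATc1/ΔS) and 10.0 CPM (WT) at day 3.5, against 19.0 CPM (NFATc1/ΔS) and 35.5 CPM (WT) at day 2.5. Th17 lay above Th2 in all libraries, and 3 of the 4 Th1 libraries lay above all of Th2, the exception being Th1 NFATc1/ΔS day 2.5. Mean levels were 18.8 ± 11.8 CPM in Th1, 17.3 ± 13.5 in Th17 and 1.502 ± 1.22 in Th2 (SD over 4 libraries each). The means of Th1 and Th17 were close, but these SDs mix both days and hide an order that turned. At day 2.5 Th17 was above Th1 in both genotypes, and at day 3.5 Th1 was above Th17 in both. Mast cell and basophil markers, set beside Kit, had a summed level of 1.58 to 3.73 CPM in Th1, 0.98 to 3.03 CPM in Th17 and 1.30 to 3.45 CPM in Th2, only 2 of 12 markers passed 1 CPM in any library, Fcer1a and Ms4a2 reached at most 0.14 and 0.34 CPM, and Mcpt2 was at 0 throughout. These were Hdc, the enzyme that makes histamine, and Cpa3. Hdc had 2.09 CPM (NFATc1/ΔS) and 1.12 CPM (WT) in early Th17 and 1.19 to 1.58 CPM in the 3 Th1 libraries with high Kit. In the Th1 library with low Kit (NFATc1/ΔS day 2.5) Hdc had 2.03 CPM and Cpa3 its highest level, 1.31 CPM. Over all libraries Hdc ran from 0.686 CPM (Th2 WT day 2.5) to 2.90 CPM (Th2 NFATc1/ΔS day 3.5), both in Th2, where Kit was low. The part of these markers in the Kit level was not tested.

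Ptprv, the phosphatase, was highest in the NFATc1/ΔS libraries of Th17 and Th2 at day 3.5; Ptprv lies at chr1:135108497-135132594 (- strand) and is annotated as a processed transcript. In Th1 libraries Ptprv had 5.09 CPM (NFATc1/ΔS) and 2.73 CPM (WT) at day 3.5, against 2.75 CPM (NFATc1/ΔS) and 3.76 CPM (WT) at day 2.5. In Th2 libraries Ptprv had 11.0 CPM (NFATc1/ΔS) and 3.98 CPM (WT) at day 3.5, against 2.81 CPM (NFATc1/ΔS) and 2.29 CPM (WT) at day 2.5. In Th17 libraries Ptprv had 14.7 CPM (NFATc1/ΔS) and 6.79 CPM (WT) at day 3.5, against 2.39 CPM (NFATc1/ΔS) and 3.23 CPM (WT) at day 2.5. At day 3.5 the NFATc1/ΔS library was the higher in all 3 cell types, while at day 2.5 the pairs went both ways. Only 78.5% of Ptprv reads were unique and 31.2% lay in introns, and an antisense gene (Gm10535, at most 6 reads) overlaps it with the counting strand not given, so its level is less certain than the others.

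Muc13, the mucin, was highest in late Th17 cells; Muc13 lies at chr16:33794037-33819934 (+ strand). In Th1 libraries Muc13 had 3.28 CPM (NFATc1/ΔS) and 2.60 CPM (WT) at day 3.5, against 6.49 CPM (NFATc1/ΔS) and 16.4 CPM (WT) at day 2.5. In Th2 libraries Muc13 had 6.70 CPM (NFATc1/ΔS) and 11.0 CPM (WT) at day 3.5, against 2.59 CPM (NFATc1/ΔS) and 4.35 CPM (WT) at day 2.5. In Th17 libraries Muc13 had 18.3 CPM (NFATc1/ΔS) and 31.9 CPM (WT) at day 3.5, against 2.46 CPM (NFATc1/ΔS) and 4.63 CPM (WT) at day 2.5. The cell types overlapped, since each held both low and high libraries. Mean levels were 14.3 ± 13.7 CPM in Th17, 7.20 ± 6.38 in Th1 and 6.15 ± 3.62 in Th2 (SD over 4 libraries each). No neighbours in this order differed beyond these SDs, which mix both days. At day 2.5 Th1 was above Th17 and Th2 in both genotypes, and at day 3.5 it was below them in both. An antisense gene, Gm15657, had 6 to 47 reads in the libraries, against 33 to 456 for Muc13.

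Slc17a6, the transporter, had the highest mean level of the 10, from its Th2 libraries; Slc17a6 lies at chr7:51622006-51671119 (+ strand). In Th1 libraries Slc17a6 had 3.90 CPM (NFATc1/ΔS) and 3.45 CPM (WT) at day 3.5, against 9.17 CPM (NFATc1/ΔS) and 6.80 CPM (WT) at day 2.5. In Th2 libraries Slc17a6 had 30.2 CPM (NFATc1/ΔS) and 76.5 CPM (WT) at day 3.5, against 5.24 CPM (NFATc1/ΔS) and 16.7 CPM (WT) at day 2.5. In Th17 libraries Slc17a6 had 2.56 CPM (NFATc1/ΔS) and 3.36 CPM (WT) at day 3.5, against 0.672 CPM (NFATc1/ΔS, 9 reads) and 0.491 CPM (WT, 7 reads) at day 2.5. Th17 lay below both other cell types in all libraries, and Th1 overlapped Th2 only through the Th2 NFATc1/ΔS library of day 2.5. Neuronal markers, 5 of 10 above 1 CPM in some library, had summed levels of 8.17 to 10.6 CPM in Th2, 4.13 to 10.4 in Th1 and 5.95 to 14.2 in Th17, Snap25 at most at 0.13 CPM and Rbfox3 at most at 0.21 CPM. Syp, a synaptic vesicle protein, reached 8.28 CPM (Th17 NFATc1/ΔS day 2.5) and Slc17a7, another vesicular glutamate transporter, 3.98 CPM (Th2 WT day 3.5); their part in the Slc17a6 level was not tested.

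Dlg2, the scaffold, was highest in late Th17 and Th2 cells; Dlg2 lies at chr7:90476672-92449247 (+ strand). In Th1 libraries Dlg2 had 3.96 CPM (NFATc1/ΔS) and 2.86 CPM (WT) at day 3.5, against 5.63 CPM (NFATc1/ΔS) and 3.89 CPM (WT) at day 2.5. In Th2 libraries Dlg2 had 11.5 CPM (NFATc1/ΔS) and 8.03 CPM (WT) at day 3.5, against 3.10 CPM (NFATc1/ΔS) and 2.97 CPM (WT) at day 2.5. In Th17 libraries Dlg2 had 14.0 CPM (NFATc1/ΔS) and 12.5 CPM (WT) at day 3.5, against 5.45 CPM (NFATc1/ΔS) and 4.84 CPM (WT) at day 2.5. All 4 late Th2 and Th17 libraries were above all 8 others. Within Th2 and Th17 the choice of the gene favours such a gap. Introns held 31.1% of Dlg2 reads, and the intron share of whole libraries was higher at day 3.5 in 3 of the 4 Th2 and Th17 pairs, the exception being Th17 WT (3.28% at day 3.5, against 3.44% at day 2.5). On exon reads alone, Dlg2 had 0.352 to 0.602 exon reads per kilobase, scaled as CPM, in the 4 late libraries, against 0.0983 to 0.229 in the 4 early ones.

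Jrk, the nuclear protein, had the lowest mean level; Jrk lies at chr15:74702301-74709535 (- strand). Its 4 Th1 libraries had 2.04 CPM (NFATc1/ΔS) and 2.93 CPM (WT) at day 3.5, against 4.39 CPM (NFATc1/ΔS) and 2.97 CPM (WT) at day 2.5. Its Th2 libraries had 3.38 CPM (NFATc1/ΔS) and 3.42 CPM (WT) at day 3.5, against 1.18 CPM (NFATc1/ΔS, 16 reads) and 0.61 CPM (WT, 8 reads) at day 2.5. Its Th17 libraries had 3.66 CPM (NFATc1/ΔS) and 3.85 CPM (WT) at day 3.5, against 1.34 CPM (NFATc1/ΔS) and 1.61 CPM (WT) at day 2.5. At day 3.5 all 6 libraries lay between 2.04 and 3.85 CPM, so the cell types differed mainly in the early libraries, where Th1 was above Th2 and Th17. The choice of the gene favours low early levels in Th2 and Th17, and so such an early gap.

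The other 3 falling genes moved together; Fam183b lies at chr11:58792797-58801960 (- strand), Asb16 lies at chr11:102268743-102279462 (+ strand) and Proser2 lies at chr2:6097607-6130211 (- strand). Over the 12 libraries, log2 CPM of Fam183b correlated with Asb16 at r = 0.94 and with Proser2 at r = 0.93, and Asb16 with Proser2 at r = 0.80; all 3 were chosen for a fall in 8 of these libraries, so the values are a description. Fam183b had between 4.01 and 4.47 CPM in the 4 late Th2 and Th17 libraries, against 13.8 to 19.7 CPM in the 4 early ones. Asb16 had 2.21 to 3.36 CPM in the late libraries, against 8.77 to 10.7 CPM in the early ones, and Proser2 2.24 to 5.59 CPM, against 7.23 to 19.6 CPM. In neither Th2 nor Th17 did a late library overlap an early one for any of the 3, a gap that the choice of the genes favours.

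In Th1 these 3 genes had 1 library far below the rest. At day 3.5 the Th1 levels of Fam183b were 4.64 CPM (NFATc1/ΔS) and 3.32 CPM (WT), against 0.131 CPM (NFATc1/ΔS, 2 reads) and 3.83 CPM (WT, 58 reads) at day 2.5. Proser2 in Th1 had 7.18 CPM (NFATc1/ΔS) and 6.44 CPM (WT) at day 3.5, against 0.131 CPM (NFATc1/ΔS, 2 reads) and 2.31 CPM (WT, 35 reads) at day 2.5. Asb16 in Th1 had 2.21 CPM (NFATc1/ΔS) and 1.30 CPM (WT) at day 3.5, against 0.459 CPM (NFATc1/ΔS, 7 reads) and 2.51 CPM (WT, 38 reads) at day 2.5. The NFATc1/ΔS library of day 2.5 was thus lowest for all 3, and it was also low for Kit (33 reads, against 289 in its WT partner). With so few reads the ratio of day 3.5 to day 2.5 in NFATc1/ΔS Th1 cells was 35.4 for Fam183b (95% interval 9.49 to 297.1) and 54.8 for Proser2 (14.9 to 457.4), and the ratio of NFATc1/ΔS to WT at day 2.5 was 0.0342 (0.00405 to 0.129) and 0.0567 (0.00661 to 0.221). These exact intervals cover counting error only and compare single libraries.

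Per kilobase of exon the order of the genes changes. The highest exon level was that of the short gene Fam183b, at 34.4 exon reads per kilobase, scaled as CPM, in Th2 WT day 2.5. Slc17a6 reached 13.9 (Th2 WT day 3.5), Spp1 10.7 (Th1 NFATc1/ΔS day 2.5) and Muc13 9.47 (Th17 WT day 3.5) on the same scale. Dlg2, Jrk and Ptprv stayed at or below 0.602, 0.75 and 1.60.

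The day course in Th1 was not used to choose the genes and was tested. Slc17a6 and Muc13, which were higher at day 3.5 in Th2 and Th17, fell in Th1: the log2 change was -1.12 ± 0.21 for Slc17a6 (edgeR quasi-likelihood, Benjamini-Hochberg over all genes, adjusted p = 0.0349, lower in both pairs) and -1.83 ± 0.37 for Muc13 (edgeR adjusted p = 0.0423, lower in both pairs). These 2 of the 10 genes passed, both lower; among all 13503 genes tested 5.7% passed in either direction and 2.7% were lower. Of the others that were higher at day 3.5 elsewhere, Spp1 had -1.12 ± 0.35 (edgeR adjusted p = 0.112), Jrk -0.57 ± 0.37, Dlg2 -0.49 ± 0.21 and Ptprv 0.22 ± 0.51, none of which passed. Of the genes that were lower at day 3.5 elsewhere, Proser2 had 2.70 ± 0.69 (edgeR adjusted p = 0.0737), Kit 1.86 ± 0.69 (edgeR adjusted p = 0.154), Fam183b 1.36 ± 0.86 and Asb16 0.41 ± 0.68, and none passed either.

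Pair by pair, 7 of the 10 genes moved in both Th1 pairs against their direction in Th2 and Th17: Slc17a6, Muc13, Jrk, Dlg2 and Spp1 were lower at day 3.5, and Kit and Proser2 higher. For Jrk the WT pair had a log2 difference of only -0.02. The share of all genes that moved so was not counted, so this is not shown to be particular to the 10. In Ptprv, Fam183b and Asb16 the 2 Th1 pairs differed in sign. The difference between Th1 and the other cell types was not tested, since the values of the others had chosen the genes. The number of genes that passed changed with the Th1 pair that was left out. Without the Th1 WT pair, 8 of the 10 genes and 6253 of all genes passed; without the Th1 NFATc1/ΔS pair 3 of the 10 passed (1831 of all genes), and in the 4 Th1 libraries alone none of the 10 did (261 of all genes). In the fits that leave out a pair, the lone Th1 pair is assumed to vary like the Th2 and Th17 pairs. Slc17a6 kept its call without either pair (edgeR adjusted p from 0.000745 to 0.351 over all alternatives, lost in the Th1 libraries alone), and Muc13 likewise (5.99e-06 to 0.164, lost in the Th1 libraries alone and on unique reads). The size moved more: Muc13 had -0.997 without the WT pair and -2.65 without the NFATc1/ΔS pair, Kit 3.69 and 0.43, and Proser2 5.67 and 1.48. Without the NFATc1/ΔS pair the values turned to -0.20 for Fam183b, -0.94 for Asb16 and -0.46 for Ptprv.

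**Figure D2:**
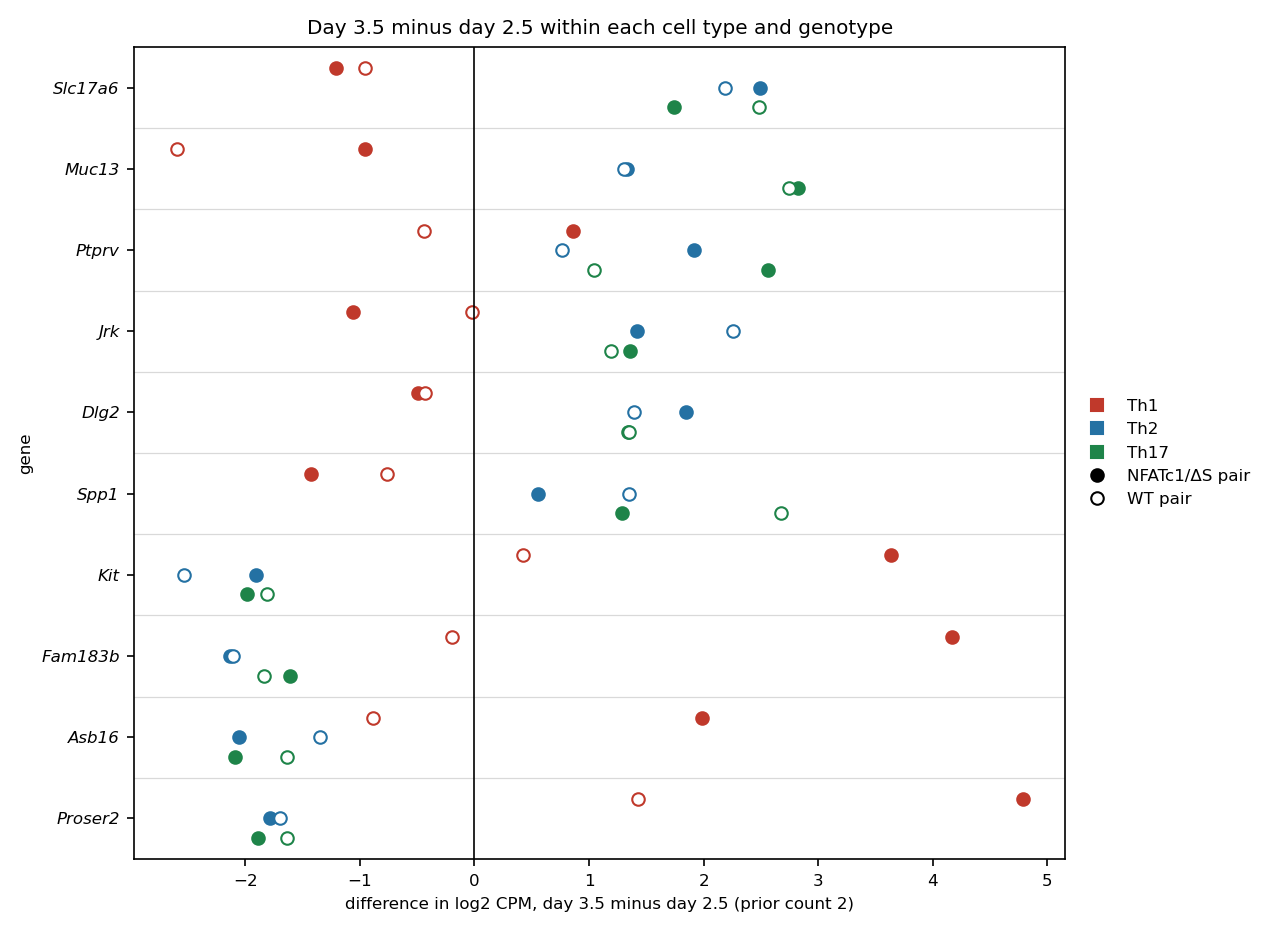
Each point is the log2 CPM of the day 3.5 library minus that of the day 2.5 library (x axis, prior count 2) for 1 gene (y axis), cell type (colour) and genotype (filled, NFATc1/ΔS; open, WT). Th2 and Th17 points lie on 1 side of 0 for every gene, because the genes were chosen so; Th1 points lie on the other side in both pairs for 7 of the 10.

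Markers of other cells moved with the day as well. Summed erythroid markers (7 genes, 5 above 1 CPM in some library) had 2.09 to 2.62 CPM at day 3.5, against 8.69 to 22.4 CPM at day 2.5 in Th2, and 1.88 to 3.22 CPM, against 19.3 to 23.8 CPM, in Th17. In Th1 they had 7.35 to 8.09 CPM at day 3.5, against 3.15 to 3.30 CPM at day 2.5, the same directions as Proser2 and Kit. Ciliated cell markers, set beside Fam183b, had 42.3 to 46.1 CPM at day 3.5, against 51.7 to 59.4 CPM at day 2.5, in Th2, 35.2 to 36.2 CPM, against 42.3 to 44.0 CPM, in Th17, and 31.4 to 31.6 CPM, against 23.4 to 29.9 CPM, in Th1, mostly from Cfap43 and Foxj1. Tekt1 and Dnah5 were at or near 0. Foxj1 was lower at day 3.5 in every pair, Th1 included. Cfap43 was lower in the Th17 pairs but higher in the Th2 and Th1 pairs, as in Th1 WT (28.1 CPM at day 3.5, against 17.2 CPM at day 2.5). Epithelial markers, set beside Muc13, had 2.29 to 21.1 CPM in Th1, 49.2 to 76.4 CPM in Th2 and 11.1 to 16.6 CPM in Th17, with Krt8 at or near 0 throughout but Krt18 at 28.1 to 39.6 CPM and Epcam at 17.1 to 32.9 CPM in Th2; the highest of the Th1 libraries was WT day 2.5, where Epcam had 17.9 CPM and Muc13 was also highest. Macrophage and monocyte markers, set beside Spp1, had 3.87 to 15.7 CPM in Th1, 11.9 to 14.7 CPM in Th2 and 9.24 to 17.9 CPM in Th17, with Csf1r at most at 0.15 CPM but Cd68 at 8.19 to 15.2 CPM in Th2 and Th17 and at 10.6 CPM in Th1 WT day 2.5. In Th1, summed innate lymphoid and progenitor markers had 175.5 to 246.9 CPM at day 3.5, against 710.4 to 1009 CPM at day 2.5. Ly6a made up most of the day 2.5 sums and fell (-3.23 ± 0.32, edgeR adjusted p = 0.00319). At day 3.5 Id2 was above Ly6a, with 135.8 CPM (NFATc1/ΔS) and 110.5 CPM (WT), against 107.7 and 61.2 CPM. Id2 was higher at day 3.5 than at day 2.5 in both Th1 pairs but did not pass (0.56 ± 0.19, edgeR adjusted p = 0.134). Summed CD8 T and NK cell markers in Th1 had 39.2 to 39.4 CPM at day 3.5, against 60.8 to 69.8 CPM at day 2.5. Gzma, a granule protease, was lower (-1.56 ± 0.22, edgeR adjusted p = 0.0124), and Klrk1 was lower in both pairs without passing. Other members went both ways. Cd8a and Cd8b1 fell in the WT pair but rose in the NFATc1/ΔS pair, to 10.5 and 12.5 CPM from 6.22 and 9.57 CPM. Eomes fell in the NFATc1/ΔS pair but rose in the WT pair, to 7.67 from 3.30 CPM. The part of these markers in the results was not tested.

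The genotype comparison asked whether the loss of NFATc1 SUMOylation goes with another level of these genes. In Th2 and Th17 cells Slc17a6, Muc13 and Kit were lower in NFATc1/ΔS: the log2 fold change was -1.21 ± 0.22 for Slc17a6 (edgeR quasi-likelihood, adjusted p = 0.0427; 3 of 4 pairs), -0.79 ± 0.11 for Muc13 (edgeR adjusted p = 0.00186; 4 of 4 pairs) and -0.78 ± 0.18 for Kit (edgeR adjusted p = 0.0423; 3 of 4 pairs). These 3 of the 10 compare with 1.96% of 13086 genes called in either direction and 1.28% called lower. Muc13 was the steadiest, at 0.611 and 0.595 of the WT level in Th2 at day 3.5 and day 2.5, and at 0.573 and 0.532 in Th17. The Slc17a6 difference lay in Th2, at 0.394 and 0.314 of the WT level at day 3.5 and 2.5, while in Th17 the ratios were 0.762 and 1.37 on 7 to 49 reads. The Kit difference lay in Th17, at 0.470 and 0.536 of WT, while in Th2 the ratios were 1.58 (8 and 5 reads) and 0.914. Whether the genotype effect differs between Th2 and Th17 was not tested. The Slc17a6 call was lost without the Th2 pair of day 2.5 (edgeR adjusted p = 0.11) or day 3.5 (0.215), the Kit call without the Th17 pair of day 2.5 (0.34) or day 3.5 (0.244), and the Muc13 call without the Th17 pair of day 3.5 (0.0518); DESeq2 kept Muc13 alone. Some markers of other cells differed by genotype too: CD8 T and NK cell markers summed in Th2 to 75.5 and 96.5 CPM in NFATc1/ΔS at day 3.5 and 2.5, against 210.5 and 215.0 CPM in WT. Most of this gap was Gzma, with 49.4 and 63.7 CPM in NFATc1/ΔS, against 181.5 and 178.0 CPM in WT. Klrk1 and Eomes were also lower. Cd8a (5.3 and 8.2 CPM, against 5.2 and 8.2 CPM) and Cd8b1 (17.9 and 21.6 CPM, against 18.1 and 22.5 CPM) were nearly equal. Over Th2 and Th17, Gzma (-1.48 ± 0.20, edgeR adjusted p = 0.0413), the B cell factor Ebf1 (-0.90 ± 0.13, edgeR adjusted p = 0.00259) and Id2 (-0.34 ± 0.06, edgeR adjusted p = 0.00869) were lower and Hdc higher (1.25 ± 0.26, edgeR adjusted p = 0.0236). Their part in the genotype results was not tested.

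Ptprv had 0.77 ± 0.29 (edgeR adjusted p = 0.312) over these 4 pairs, with NFATc1/ΔS at 2.76 times WT in Th2 and 2.17 times in Th17 at day 3.5, against 1.23 and 0.740 times at day 2.5. Without the Th17 pair of day 2.5 Ptprv had 1.08 (edgeR adjusted p = 0.00922), and it also passed when no filter on reads was applied (0.79, edgeR adjusted p = 0.000167), so that 4 of the 10 were then called; over all alternatives it had 0.48 to 1.08. Intron reads made up 3.98 and 4.16% of the NFATc1/ΔS libraries, against 2.93 and 3.28% of the WT libraries, at day 3.5 in Th2 and Th17; on exon reads alone Ptprv still had 1.05 and 1.60 exon reads per kilobase, scaled as CPM, in NFATc1/ΔS, against 0.400 and 0.671 in WT. The genotype-by-day test gave 1.34 ± 0.33 for Ptprv (edgeR adjusted p = 0.681), and none of the 10 genes passed it. Of 13086 genes 1 (0.00764%) passed, 878 had an unadjusted p under 0.05, and DESeq2 called 7. The 10 genes had been chosen to move one way with day in both genotypes, which limits what this test can show for them. Dlg2 (0.24 ± 0.13), Proser2 (0.23 ± 0.13), Asb16 (-0.22 ± 0.16), Fam183b (-0.08 ± 0.11), Jrk (0.04 ± 0.23) and Spp1 (0.01 ± 0.26) did not pass the genotype test.

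**Figure D3:**
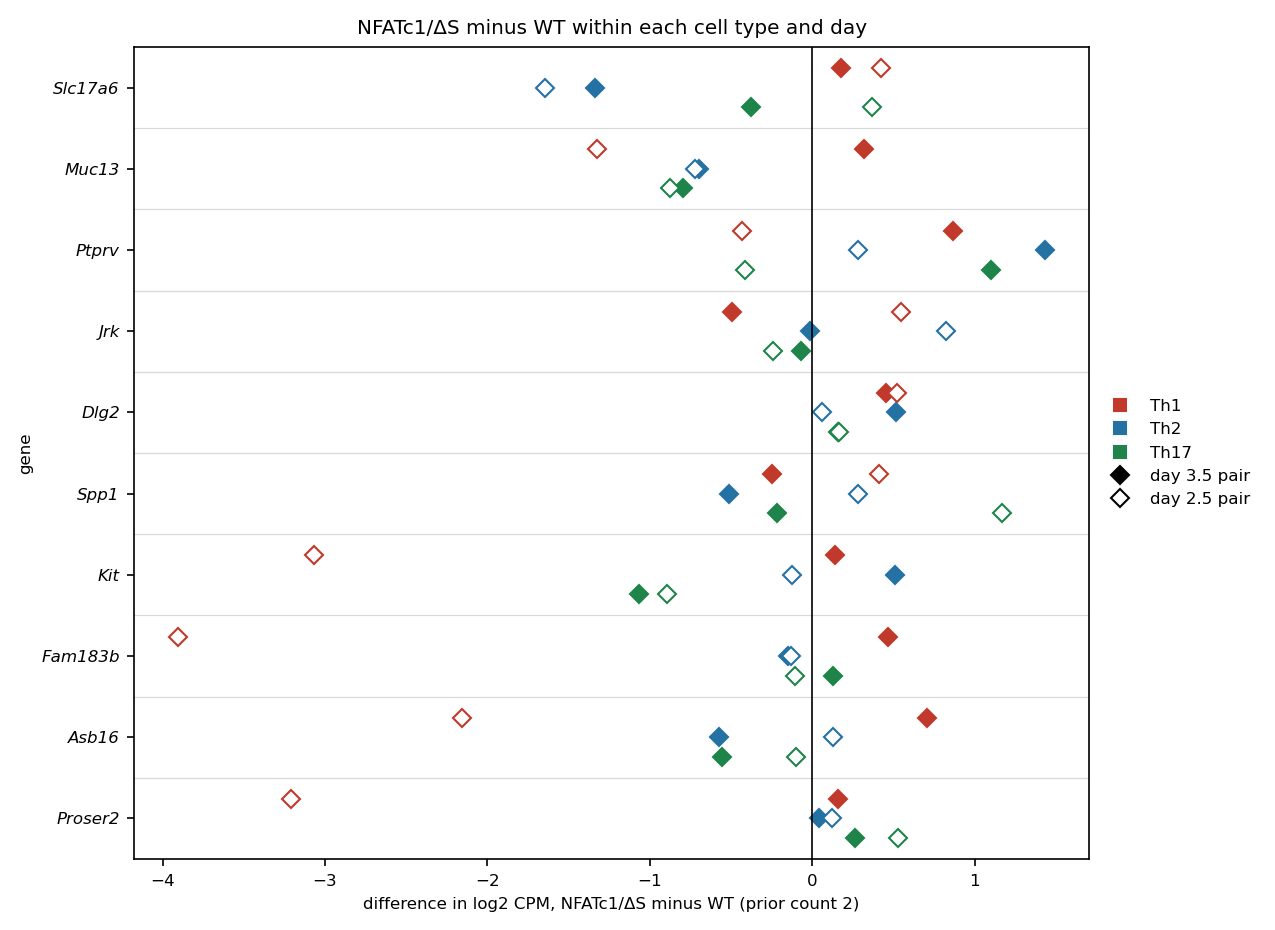
Each point is the log2 CPM of the NFATc1/ΔS library minus that of the WT library (x axis, prior count 2) for 1 gene (y axis), cell type (colour) and day (filled, day 3.5; open, day 2.5). Muc13 lies below 0 in all 4 Th2 and Th17 pairs, and the open red points of Kit, Fam183b, Asb16 and Proser2 lie far below 0.

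In Th1 no gene passed the genotype test: 0 of 13503 were called by edgeR (0%) and none by DESeq2 or limma-voom, and 718 had an unadjusted p under 0.05. The 2 Th1 pairs went different ways for 8 of the 10 genes. How many of all genes did so was not counted, so this is not shown to be particular to the 10. At day 3.5 the differences lay between -0.50 (Jrk) and 0.87 (Ptprv), whereas at day 2.5 they reached -3.91 for Fam183b, -3.21 for Proser2, -3.07 for Kit, -2.16 for Asb16 and -1.32 for Muc13. Without the day 3.5 pair these 5 genes, with 5107 of all genes, passed; without the day 2.5 pair 0 of the 10 and 15 of all genes did. Slc17a6 had 0.31 ± 0.21 in Th1 (edgeR adjusted p = 0.594), with NFATc1/ΔS the higher in both pairs, whereas in Th2 it was the lower in both; the difference was not tested.

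Cell types were compared over the 4 blocks of genotype and day; the 3 comparisons share libraries. Spp1 and Kit were higher in Th1 than in Th2, by 2.43 ± 0.59 for Spp1 (edgeR quasi-likelihood, adjusted p = 0.0168; 4 of 4 blocks) and by 3.90 ± 1.00 for Kit (edgeR adjusted p = 0.0201; 3 of 4 blocks). Of all 13503 genes tested 28.1% passed, 14.3% higher and 13.8% lower. Between Th2 and Th17, Slc17a6 was higher in Th2 by 4.01 ± 0.80 (edgeR adjusted p = 0.013) and Kit lower by -3.44 ± 0.93 (edgeR adjusted p = 0.0435), each in 4 of 4 blocks, where 11.8% of genes passed (6.37% higher, 5.44% lower). Between Th1 and Th17 none of the 10 passed (4.66% of genes did, 1.95% higher and 2.71% lower); the nearest were Spp1 at 2.55 ± 0.61 (edgeR adjusted p = 0.0501), which did not overlap between the cell types, Asb16 at -1.70 ± 0.59 and Slc17a6 at 2.17 ± 0.82. Muc13, Ptprv, Jrk, Dlg2, Fam183b and Proser2 passed in none of the 3 comparisons. These fits assume 1 day course for all cell types, so differences that turn with day can cancel. Muc13 in WT, for example, had 16.4 CPM in Th1 against 4.35 in Th2 at day 2.5, but 2.60 against 11.0 at day 3.5.

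These calls stood near the threshold. Leaving out the Th1 WT day 2.5 library alone, Spp1 in Th1 against Th2 had 1.89 (edgeR adjusted p = 0.055); the call was also lost without the WT day 2.5 block or the NFATc1/ΔS day 2.5 block, and over all alternatives its adjusted p ran from 0.000139 to 0.0673. Kit in the same comparison lost its call without the WT day 2.5, WT day 3.5 or NFATc1/ΔS day 3.5 block (3.07 to 4.33; edgeR adjusted p = 0.0713 to 0.108), with a smallest adjusted p of 9.27e-05 over the alternatives. Slc17a6 in Th2 against Th17 had 3.79 to 4.26 with adjusted p from 2.51e-08 to 0.0843 (over 0.05 without the WT day 2.5 or NFATc1/ΔS day 3.5 block), and Kit -3.68 to -3.27 with adjusted p from 0.00225 to 0.2 (over 0.05 without any block but NFATc1/ΔS day 2.5). The directions held in all of these.

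**Figure D4:**
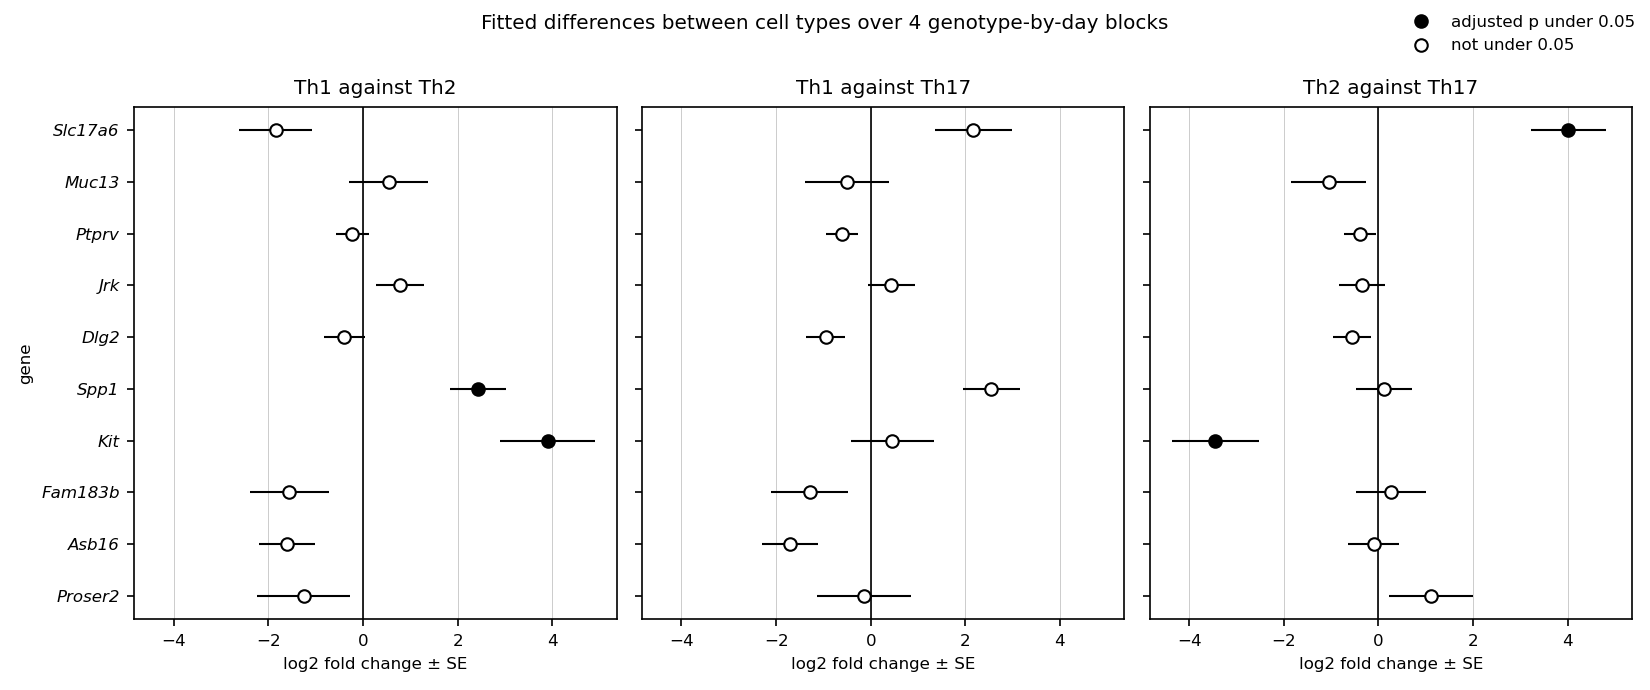
Fitted log2 fold change (x axis, bars: SE) of each gene (y axis) between 2 cell types over 4 blocks of genotype and day, with filled points where the adjusted p was under 0.05. Spp1 and Kit are filled in Th1 against Th2, Slc17a6 and Kit in Th2 against Th17, and no gene in Th1 against Th17.

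Relatives and partners of the genes gave a mixed picture, to be read against the 19.9% of all genes that rose and 18.7% that fell with day in Th2 and Th17, and the 3% and 2.7% in Th1. Of 10 osteopontin receptors 8 were tested; with day in Th2 and Th17, 1 rose and 3 fell, among them the integrin chain Itga4 (-0.57 ± 0.12, edgeR adjusted p = 0.00377) and Cd44 (-0.38 ± 0.09, edgeR adjusted p = 0.00873). In Th1, 2 rose and none fell, namely Cd44 (1.23 ± 0.12, edgeR adjusted p = 0.0029) and Itgav (0.57 ± 0.12, edgeR adjusted p = 0.0464), opposite in sign to Spp1 there, which did not pass. Itga4 was higher in NFATc1/ΔS Th2 and Th17 cells (0.53 ± 0.09, edgeR adjusted p = 0.00904), while the other 7 receptors did not pass. The 4 secreted phosphoproteins of the same family (Ibsp, Dmp1, Dspp and Mepe) passed no read filter.

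Of 19 genes of the Kit ligand and its signalling 18 were tested. With day in Th2 and Th17 none rose and 6 fell, with a median of -0.21 against 0.03 over all genes tested; Pik3r1, a PI3-kinase subunit, had -0.49 ± 0.07 (edgeR adjusted p = 0.000313) and Stat5b -0.45 ± 0.06 (edgeR adjusted p = 0.000467). In Th1 the adaptor Sh2b2 (1.28 ± 0.215, edgeR adjusted p = 0.0234) was the only one to rise. Of 6 tested transcription factors of Kit, Myb rose (0.965 ± 0.12, edgeR adjusted p = 0.000258) and Runx1 fell (-0.33 ± 0.07, edgeR adjusted p = 0.00468) with day in Th2 and Th17, and none changed in Th1. Against Th2, Th1 cells had 2 of the 6 higher and 3 lower, among them Lyl1 (-1.94 ± 0.20, edgeR adjusted p = 0.000336), although Kit was higher.

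Of 20 receptor-type tyrosine phosphatases 9 were tested, with Ptprc the only one to rise (0.21 ± 0.07, edgeR adjusted p = 0.0419) and Ptprf the only one to fall (-0.67 ± 0.09, edgeR adjusted p = 0.000302) with day in Th2 and Th17, and none called in Th1 or by genotype. Of 14 tested p53 targets, 5 rose and 4 fell with day in Th2 and Th17; Zmat3 rose there (0.46 ± 0.07, edgeR adjusted p = 0.000572) and fell in Th1 (-1.12 ± 0.12, edgeR adjusted p = 0.00387). None of the 14 passed the genotype test, the nearest being Zmat3 at 0.26 ± 0.06 (edgeR adjusted p = 0.0509). Of 3 tested SLC17 transporters and 2 tested transmembrane mucins none changed with day or genotype. Muc1 was lower in Th1 than in Th2 (-2.61 ± 0.37, edgeR adjusted p = 0.00132) and higher in Th2 than in Th17 (2.73 ± 0.37, edgeR adjusted p = 0.00229).

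Of 5 tested DLG scaffolds and partners, 1 rose and 2 fell with day in Th2 and Th17, Dlg3 (-0.40 ± 0.09, edgeR adjusted p = 0.0045) and Dlg4 (-0.34 ± 0.09, edgeR adjusted p = 0.0117) falling. In Th1, Dlg5 was the only one of 7 tested to change (3.79 ± 0.585, edgeR adjusted p = 0.0171), while Dlg2 did not pass there (-0.49). Of 7 tested genes derived from Tigger transposases 2 rose, Cenpb (0.47 ± 0.08, edgeR adjusted p = 0.00126) and Tigd3 (1.18 ± 0.41, edgeR adjusted p = 0.0404), and none in Th1. Of 7 tested members of the ASB family 1 fell, Asb3 (-0.46 ± 0.09, edgeR adjusted p = 0.00196). Asb2 was lower in Th1 than in Th2 (-2.69 ± 0.16, edgeR adjusted p = 2.75e-05), and higher in Th2 than in Th17 (2.88 ± 0.16, edgeR adjusted p = 5.48e-05), while Asb16 did not pass either test.

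The genes with the most similar course were looked up among 10503 genes with a mean log2 CPM of at least 1, by Pearson r of log2 CPM over the 12 libraries. Spp1 was followed most closely by Pbk (r = 0.98) and Mis18a (0.97). Kit was followed by Pcgf5 (0.97) and Gng2 (0.97), Fam183b by Pold4 (0.99) and Espn (0.99), Asb16 by Zscan12 (0.98) and Vopp1 (0.97), and Proser2 by Map3k1 (0.99) and Per1 (0.99). Slc17a6 was nearest to Elmo2 (0.96) and Tspyl3 (0.95), Jrk to Arf2 (0.95) and Fbxw5 (0.94), Ptprv to Carns1 (0.91) and Zbtb39 (0.90), Dlg2 to Araf (0.90) and Zfp365 (0.90), and Muc13 to Oas3 (0.90) and Hcls1 (0.90). The best of so many genes over 12 libraries that share cell type, day and depth will be high, so these values have no p.

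Among the 10 genes themselves the rising ones did not form 1 course. Dlg2 correlated with Ptprv (r = 0.82) and Muc13 (r = 0.71), whereas Spp1 had r = -0.02 with Dlg2 and 0.65 with Jrk. Across the 2 directions Spp1 had r = -0.88 with Asb16 and -0.82 with Fam183b, and Slc17a6 had r = -0.84 with Kit. These values are over the 12 libraries, 8 of which chose the genes.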

How the data were processed

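RNA-seq after poly(A) selection covered 12 libraries of mouse CD4+ T cells. The authors deposited 1 table per library with whole-number counts of total, unique, exon and intron reads for 41457 genes, per the file headers; the build is GRCm38 per the submitters' processing notes, with aligner, counter and strand setting not given in the sources used here. Exon lengths and positions are other columns deposited by the authors. Other deposited values were not used, because the tests need counts.

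Total gene reads were tested with edgeR 4.0.16 (limma 3.58.1, R 4.3.3): robust quasi-likelihood fits after TMM scaling, on genes kept by filterByExpr (at least 10 reads, 15 in total). P-values were adjusted over all genes tested (Benjamini-Hochberg, threshold 0.05). All 10 genes passed the filter in every comparison. SE was taken as |log2 fold change| / sqrt(F), and the prior count for log2 CPM was 2. Day effects used blocks of cell type and genotype, genotype effects blocks of cell type and day, and cell types blocks of genotype and day. Th1 effects came from all 12 libraries, which share 1 estimate of the spread. Each fit was tested on simulated data. Alternatives were RLE size factors, no filter, DESeq2 1.42.0, limma-voom, unique reads, Th1 alone and leaving out each pair, block or library.

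The members and the gene lists were chosen with earlier results of these data known. Named were all 10 members, the 2 genes most like each, the 2 just outside the choice each way, and, of each list, up to 2 genes of smallest p per comparison. Markers of other cells are named where they stand beside a result.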

Additional observations from a re-analysis of the deposited data

Results flagged for a closer look

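The day difference of 7 genes went one way in both Th1 pairs and the opposite way in all 4 Th2 and Th17 pairs. The mean log2 difference in Th1 (day 3.5 minus day 2.5, 2 pairs) was -1.08 for Slc17a6, -1.78 for Muc13, -0.54 for Jrk, -0.46 for Dlg2 and -1.10 for Spp1, where Th2 and Th17 were higher at day 3.5. It was 2.03 for Kit and 3.11 for Proser2, where Th2 and Th17 were lower. The difference between the cell types was not tested, because the Th2 and Th17 values had chosen the genes. How many of all genes went opposite ways like this was not counted. Both Th1 libraries of day 2.5 stand apart from the other Th1 libraries, and their part in this was not tested.

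The genotype difference of Slc17a6 was 0.30 in Th1 as a mean of 2 pairs (NFATc1/ΔS higher in both), whereas both Th2 pairs had NFATc1/ΔS lower, at -1.65 and -1.34. This difference between cell types was not tested either.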

How the results depend on the processing

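No paired analysis was possible because the labels carry no replicate numbers; the fits already match libraries on cell type, genotype or day. Among the 10 genes, called values kept their direction under every alternative; list genes were not rerun. The causes of the changes below were not tested. Apart from fits that left out a pair, block or library, the alternatives called 261 to 1020 of all genes for day in Th1. For genotype in Th2 and Th17 they called 187 to 630. They called 3131 to 4493 in Th1 against Th2, 501 to 1691 in Th1 against Th17 and 1307 to 2165 in Th2 against Th17. Counts among the 10 are to be read against these. Genes called for day in Th1 numbered 261 in the Th1 libraries alone and 1831 to 6253 when a pair was left out; of the 10 genes, DESeq2 called 4, unique reads 1, Th1 alone 0, and a left-out pair 3 to 8. For genotype in Th2 and Th17 the count was 630 with no filter and 129 to 244 without a pair, with 4 of the 10 with no filter, 1 by DESeq2 and 1 to 3 without a pair. In Th1 it was 15 to 5107 (0 to 5 of the 10) without a pair. Genotype by day gave 50 genes with no filter, 7 by DESeq2, 0 by limma-voom, 0 on unique reads and 0 to 8 without a library. Th1 against Th2 gave 1684 to 4296 genes without a block or library, and of the 10 genes 1 with no filter, 4 by DESeq2 and 0 to 3 without a block. Th1 against Th17 gave 1691 genes by DESeq2 and 56 to 977 without a block or library; of the 10, 1 with RLE factors, 3 by DESeq2 and 1 on unique reads. Th2 against Th17 gave 482 to 1792 genes without a block; of the 10, 0 with no filter, 1 by limma-voom and 0 to 2 without a block.

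Signs turned only in comparisons that the gene named had not passed. On unique reads Ptprv had -0.0056 for day in Th1, and Spp1 -0.0607 for genotype in Th2 and Th17 (-0.0881 by limma-voom). Jrk had -5e-04 for genotype in the Th1 libraries alone. By limma-voom Muc13 had -0.2605 in Th1 against Th2 and Kit -0.08 in Th1 against Th17. With a pair left out, day in Th1 ran over -0.4574 to 0.8698 for Ptprv, -0.2031 to 5.0433 for Fam183b and -0.9395 to 2.2298 for Asb16. Genotype in Th2 and Th17 ran over -0.1018 to 0.1151 for Jrk and -0.2101 to 0.2476 for Spp1. Genotype in Th1 ran over -1.3419 to 0.3145 for Muc13, -0.4517 to 0.8768 for Ptprv, -0.5408 to 0.5605 for Jrk, -0.2697 to 0.4132 for Spp1, -3.1379 to 0.1222 for Kit, -4.7827 to 0.4634 for Fam183b, -2.4313 to 0.7391 for Asb16 and -4.0561 to 0.1385 for Proser2. With a block or library left out, Th1 against Th2 ran over -0.4348 to 1.1043 for Muc13, -0.5987 to 0.079 for Ptprv and -0.9155 to 0.01 for Dlg2. Th1 against Th17 ran over -1.5593 to 0.406 for Muc13, -0.046 to 0.7985 for Jrk, -0.4319 to 1.1592 for Kit and -1.0203 to 0.6892 for Proser2. Th2 against Th17 ran over -0.0561 to 0.3845 for Spp1 and -0.1231 to 0.0018 for Asb16. Leaving out single Th1 libraries of day 2.5 was added after the data had been seen. Low counts limit Kit in Th2 and Slc17a6 and Spp1 in early Th17, and 1 library per group leaves few degrees of freedom.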
